A study of Mus musculus with 18 samples.

Results

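Airway luminal cells of the mouse lung were sorted into a CD24hi and a CD24lo population, and the RNA of both was sequenced from the same 3 mice. Libraries were assigned to the populations by their sort labels, which gave 6 (3 CD24hi and 3 CD24lo) of the 18 in the series. Both gates held cells positive for EpCAM, an epithelial adhesion molecule, and for CD104, the beta 4 chain of the hemidesmosome integrin, and they differed only in surface CD24. The labels describe the CD24hi cells as enriched in ciliated cells and the CD24lo cells as enriched in club cells. All animals were untreated C57BL/6 males of 8 to 12 weeks, and mice 4, 5 and 6 each gave a CD24hi and a CD24lo library. The same mice also gave alveolar cells (EpCAM-positive, CD104-low) and EpCAM-negative cells, whereas the tracheal NGFR-positive (basal) and NGFR-negative (non-basal) cells came from mice 1, 2 and 3. These other populations are used only where they are named. A gate is not a pure cell type, and in bulk RNA of sorted cells a lower share of cells of a type and less RNA per cell cannot be told apart.

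Multiciliated cells of the airway carry a coat of motile cilia, which clear mucus by beating. Each cilium holds an axoneme of doublet microtubules around a central pair, moved by dynein arms that are assembled in the cytoplasm, and it is built and maintained by intraflagellar transport (IFT). Multicilin and GEMC1 start the programme, and Foxj1 and the RFX factors switch on the ciliary genes. Club cells are secretory cells of the conducting airway that release secretoglobins and other defence proteins, metabolise inhaled compounds through cytochrome P450 enzymes and serve as progenitors, and Notch signalling is known to favour the secretory over the ciliated fate.

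Each airway library held between 9811503 and 12070383 reads counted in genes. Gene levels are given as RPKM (reads per kilobase of gene model and per megaread, after TMM scaling of library sizes, a trimmed-mean method), always in the order of mice 4, 5 and 6. Differences are log2 fold changes of CD24hi over CD24lo cells, given ± SE where an error is shown, with a Benjamini-Hochberg adjusted p from the edgeR quasi-likelihood test of all 18 libraries, and a gene was called at an adjusted p under 0.05. Of 17989 genes tested, 4998 (27.8%) were higher in CD24hi cells and 4901 (27.2%) were lower, with a median difference of -0.06 over all genes. Scaling by library size alone moved that median to 0.21 and the share of called genes that were higher in CD24hi cells from 50.5% to 68.4%, so small differences are relative to the scaling. Among the called genes, 9636 of 9899 had the same sign in all 3 mice. The libraries of mouse 4 stood apart from those of mice 5 and 6 in both gates. Counts of replicate pairs that included mouse 4 differed by a chi-square of 24.2 to 39.6 per degree of freedom, against 5.54 (CD24hi) and 7.43 (CD24lo) for mice 5 and 6. Without both airway libraries of mouse 4, 10216 genes were called, and 9106 of the calls made with all mice were among them.

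The markers followed the labels. Cd24a (mm10 chr10:43579169-43584265), the gene of the sorted surface protein, stood at 794, 1199 and 1317 RPKM in CD24hi and at 338, 339 and 343 RPKM in CD24lo cells, a difference of 1.70 ± 0.14 (adjusted p = 2.1e-08). Both gates thus expressed Cd24a, and the lowest CD24hi library lay above the highest CD24lo library. Because the gates were set on surface CD24, Cd24a is no independent check of the labels. Foxj1 (chr11:116330704-116335499), the transcription factor that drives motile cilium genes, was at 698, 591 and 588 RPKM in CD24hi and 108, 51.5 and 52.6 RPKM in CD24lo cells, a difference of 3.15 ± 0.28 (adjusted p = 4.1e-08). For comparison, Foxj1 stood at 42.8 ± 11.03 RPKM (SD, n = 3) in tracheal non-basal and at 4.32 ± 0.645 RPKM in alveolar cells, below each CD24lo library. Scgb1a1 (chr19:9083642-9087956), the main secretoglobin of club cells, took 4.66, 3.62 and 3.91% of all counted reads in CD24hi and 21.5, 26.8 and 27.6% in CD24lo cells. These shares averaged 4.07 ± 0.535% and 25.3 ± 3.33% (SD, n = 3), and the exact two-sided permutation test gave p = 0.1, the smallest value that 3 against 3 libraries allow. Across all genes the edgeR fit gave Scgb1a1 a difference of -2.94 ± 0.26 (adjusted p = 3.0e-08). In alveolar cells Scgb1a1 took 0.151 to 0.196% of the reads, so that the CD24hi cells were far above that background.

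The other gate genes were close between the populations or higher in CD24hi cells. Epcam was at 113, 129.7 and 121 RPKM against 83.7, 89.8 and 85.8 RPKM, and Itgb4, which encodes CD104, at 56.98, 45.3 and 39.7 against 19.04, 18.8 and 12.4 RPKM. Ptprc and Pecam1, the genes of the leukocyte and endothelial antigens CD45 and CD31, did not pass the test. Pecam1 was nevertheless well above 0 in both gates, at 52.9, 24.9 and 13.3 RPKM in CD24hi and 72.7, 25.2 and 23.7 RPKM in CD24lo cells, and highest in mouse 4 of each. Its difference of -0.42 turned to 0.31 without the CD24lo library of mouse 4, and without the CD24hi library of that mouse the edgeR adjusted p was 0.032.

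**Figure D1:**
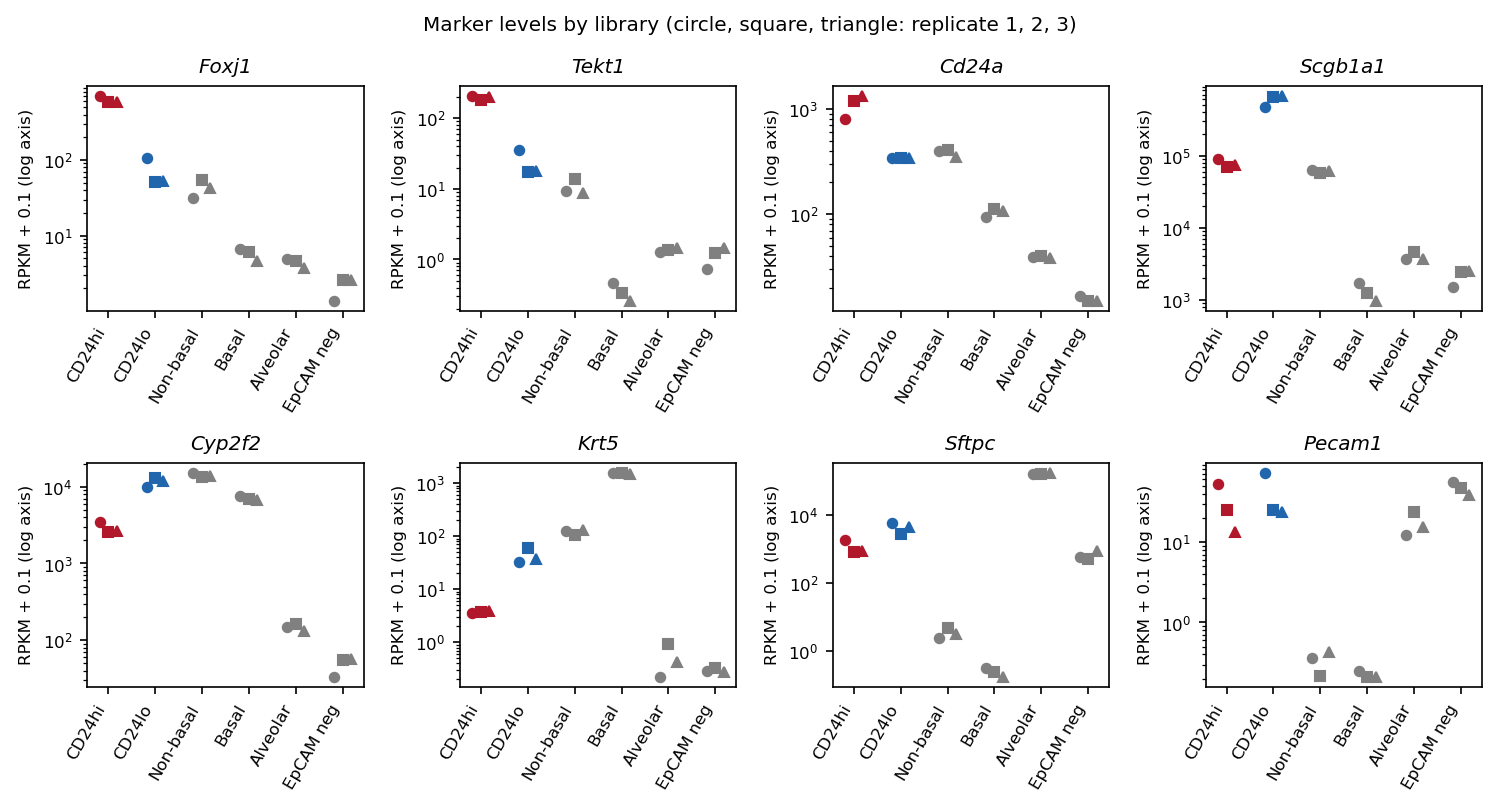
Levels of 8 marker genes in the 18 libraries of the 6 sorted populations, as RPKM plus 0.1 on a log axis. Each point is 1 library, circles, squares and triangles are replicates 1, 2 and 3, and CD24hi is red, CD24lo blue and the other populations grey. Foxj1 and Tekt1 are highest in CD24hi and Scgb1a1 in CD24lo cells, while Krt5 peaks in basal, Sftpc in alveolar and Cyp2f2 in airway and tracheal cells, and Pecam1 of both airway gates lies far above the tracheal cells.

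All 15 ciliated cell markers were higher in CD24hi cells, with a median difference of 3.15. None of their CD24hi and CD24lo values overlapped, which also held for 8939 of all 9899 called genes. Genes of the axoneme machinery were mostly higher in CD24hi cells too. Of the dynein arm genes, 18 of 19 tested were higher (median 3.22), as were 13 of 13 genes of dynein arm assembly (median 2.55), 26 of 26 genes of the radial spokes, central pair and docking complexes (median 3.21) and 21 of 23 doublet inner proteins and tubulins (median 3.12). Together these 4 lists held 81 tested genes, of which 78 were higher, 1 was lower and 2 were not called, against 27.8% higher and 27.2% lower among all genes.

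Dnah5, an outer arm heavy chain, stood at 33.3, 49.96 and 52.01 RPKM in CD24hi and 6.66, 2.96 and 3.44 RPKM in CD24lo cells (difference 3.37 ± 0.34, adjusted p = 2.1e-07). Dnaic2, an intermediate chain of the same arm, was at 113, 101 and 106 against 17.5, 7.83 and 9.06 RPKM (difference 3.22 ± 0.23). The inner arm light chain Dnali1 was at 257, 219.7 and 219.6 against 39.9, 16.8 and 15.8 RPKM. In each of the 3 the CD24lo value of mouse 4 was the highest of its gate. Dnah17, a heavy chain known from sperm, was the exception, with a difference of -0.75, and it was found at 0.228, 0.254 and 0.116 RPKM in CD24hi and 0.309, 0.448 and 0.247 RPKM in CD24lo cells, well below the other arms. Its edgeR call (adjusted p = 0.041) was lost without the CD24hi library of mouse 6 (0.18), the CD24lo library of mouse 4 (0.051) or that of mouse 5 (0.22).

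Among the assembly factors, Dnaaf1 was at 41.1, 34.7 and 33.96 RPKM in CD24hi and 6.49, 2.75 and 2.82 RPKM in CD24lo cells. Hydin, a very large protein of the central pair, was at 35.9, 35.6 and 36.8 against 5.29, 2.10 and 1.93 RPKM (difference 3.53 ± 0.32). Rsph1 of the radial spoke head reached 486, 420.0 and 394 against 80.995, 32.1 and 36.7 RPKM, and Drc1 of the nexin link 187, 171 and 183 against 29.1, 14.5 and 11.02 RPKM. Tekt1, a filament protein inside the doublet, was at 205, 181 and 198 against 35.03, 16.97 and 17.5 RPKM and Cfap161 at 160.0, 151 and 147 against 24.3, 11.6 and 12.9 RPKM, again with mouse 4 highest among the CD24lo libraries. Tubb4b, the beta-tubulin of axonemes that other cells also use, differed less (difference 1.85; 861, 699.7 and 762 against 248, 206 and 189 RPKM). The genes of this list that were not called were Tubb4a and Tekt5. Tubb4a, a neuronal beta-tubulin, was at 1.83, 0.532 and 0.494 RPKM in CD24hi and 2.603, 1.19 and 0.930 RPKM in CD24lo cells, and Tekt5, known from sperm, at 1.18, 0.812 and 0.985 against 1.59, 0.231 and 0.451 RPKM. For both, 1 library decided the call, since the edgeR adjusted p was 0.0064 for Tubb4a without the CD24hi library of mouse 4 (and 0.048 in the fit of the 6 airway libraries with mouse as a block) and 0.024 for Tekt5 without the CD24lo library of mouse 4.

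The level of axonemal genes that remained in CD24lo cells differed between mice. Within a mouse, the median of the 4 axoneme lists in CD24lo cells was 18.1% of the CD24hi level in mouse 4 (interquartile range 16.3 to 23.8%), 7.91% in mouse 5 (7.004 to 12.1%) and 8.33% in mouse 6 (7.03 to 11.2%). Without mouse 4 the list medians rose to 3.77 for the dynein arms and 3.56 for the doublet proteins, with the counts of called genes unchanged. The CD24lo cells were also above alveolar cells for all 15 ciliated markers and for 18 of 19 dynein arm genes, beside 24.2% of all genes. Alveolar cells gave the background of the same mice, where Tekt1 stood at 1.27 ± 0.0889 RPKM and Dnah5 at 0.265 ± 0.0720 RPKM (SD, n = 3). For the 15 ciliated markers together, the summed CPM (reads per megaread of the TMM-scaled library size, not divided by length) was 20527, 19882 and 21464 in CD24hi, 5346, 4147 and 4131 in CD24lo and 596 to 655 in alveolar cells. Most of each CD24lo sum was the list member Sec14l3, with 132232, 144180 and 156675 reads in CD24hi and 39629, 34721 and 29556 in CD24lo cells. The median of the 15 markers in CD24lo cells was lower, at 16.7, 7.99 and 7.77% of the CD24hi level in mice 4, 5 and 6.

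**Figure D2:**
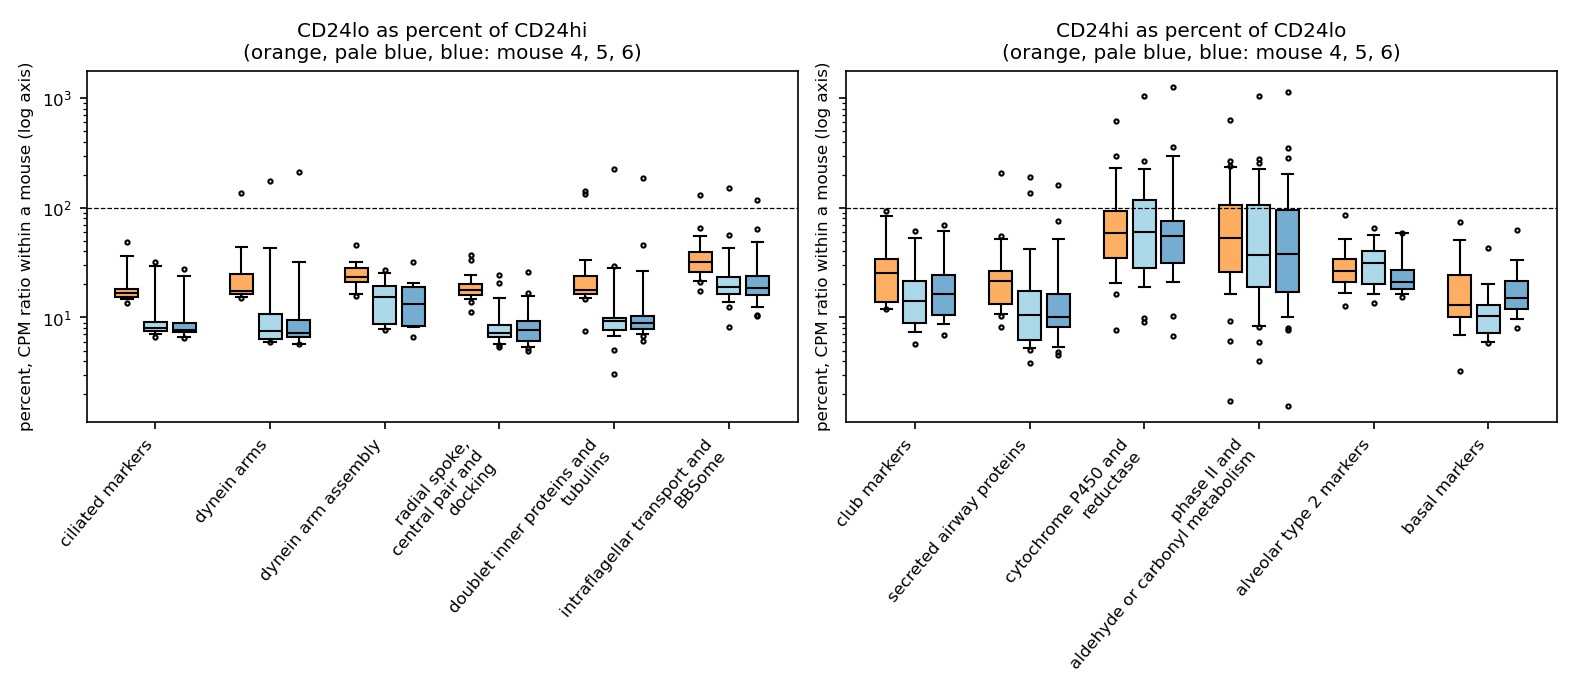
Level of list members in the lesser gate as a percent of the other gate of the same mouse, with orange, pale blue and blue boxes for mice 4, 5 and 6. The left panel gives CD24lo as a percent of CD24hi for the ciliary lists, the right panel CD24hi as a percent of CD24lo for the other lists, boxes span the quartiles, whiskers the 5th to 95th percentiles, only genes with reads in both libraries enter, and the dashed line marks 100%. The axonemal boxes of mouse 4 lie above those of mice 5 and 6.

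Intraflagellar transport genes, which all ciliated cells including those with a single primary cilium use, differed in the same direction, with a smaller median. Of 35 tested members of the IFT particles, their motors and the BBSome, 34 were higher in CD24hi cells and 1 was lower (median 2.22). Beside them, 27.8% of all genes were higher and 27.2% lower. In mice 4, 5 and 6 the median CD24lo level of the list was 32.0, 18.8 and 18.4% of the CD24hi level. Ift88 of particle B was at 58.5, 84.8 and 85.3 RPKM in CD24hi and 18.7, 12.1 and 12.3 RPKM in CD24lo cells, and Ift172 of the same particle at 72.9, 63.1 and 63.3 against 18.8, 13.1 and 13.3 RPKM. Mouse 4 had the highest CD24lo value of both. The retrograde motor chain Dync2h1 was at 14.3, 19.4 and 20.3 against 4.13, 3.17 and 2.68 RPKM. Traf3ip1 (Ift54) had the largest difference of the list (difference 3.06), Ift20, which also works at the Golgi, one of the smallest (difference 0.78; 116, 108 and 104 against 64.1, 60.4 and 66.6 RPKM), and Ttc21b the only negative one (difference -0.41, edgeR adjusted p = 0.0011, and 0.28 with library size alone).

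A short promoter sequence was more frequent in the axonemal genes than in all promoters. Because 78 of the 81 tested axonemal genes were called higher, its share describes the gene list and does not test the sort. The letters GTTGCC, the core of the X-box bound by RFX factors, were searched on both strands in 300 bases around each RefSeq start (250 before and 50 after). They were found in 48.6% (36 of 74) of the promoters of axonemal genes called higher (66 of 78 genes had a promoter in the table) and in 41.9% (13 of 31) of those of called IFT genes (30 of 34 genes). In comparison, they were found in 12.5% of all 32851 promoters, 12.9% of the 16789 promoters of tested genes, 18.1% of those of genes called higher and 10.3% of those called lower. None of 11 club marker promoters and 3 of 27 promoters of secreted airway proteins held these letters. The forkhead letters GTAAACA were in 2.7% of axonemal promoters and 3.65% of all promoters, and the letters CTCAAG of NKX2 factors in 37% (10 of 27) of the promoters of secreted proteins, 21.6% of axonemal promoters and 15.9% of all promoters. TTGCNNCAA, the C/EBP letters, were in 2.7% of axonemal promoters and 2.08% of all. GTTGCC and TTGCNNCAA share the letters TTGC, so their matches can overlap, and a match describes the window only and shows no binding. The 150 bases before the start of 4 ciliary genes with the X-box core are printed as examples, with Cyp2f2, a club cell gene without it, for contrast. Capitals mark GTTGCC or its reverse complement GGCAAC, sequences run 5′ to 3′ on the gene's strand and coordinates are GRCm38.p6. Tekt1 is at chr11:72361883-72362032 (minus strand, cores 35 and 15 bases before the start), Dnaic2 at chr11:114727269-114727418 (plus strand, 26 bases before), Cfap161 at chr7:83794840-83794989 (minus strand, 66, 59 and 39 bases before), Dynlrb2, a dynein light chain, at chr8:116504865-116505014 (plus strand, 51 bases before) and Cyp2f2 at chr7:27119805-27119954 (plus strand).
Tekt1: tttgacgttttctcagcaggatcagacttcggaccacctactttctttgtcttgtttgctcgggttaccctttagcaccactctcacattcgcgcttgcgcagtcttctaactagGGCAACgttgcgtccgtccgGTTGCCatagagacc
Dnaic2: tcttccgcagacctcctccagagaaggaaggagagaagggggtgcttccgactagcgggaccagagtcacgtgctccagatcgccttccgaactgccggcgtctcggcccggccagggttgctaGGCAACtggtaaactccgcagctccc
Cfap161: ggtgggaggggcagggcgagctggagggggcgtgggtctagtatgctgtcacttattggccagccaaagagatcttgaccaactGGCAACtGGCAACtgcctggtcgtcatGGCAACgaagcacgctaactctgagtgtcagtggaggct
Dynlrb2: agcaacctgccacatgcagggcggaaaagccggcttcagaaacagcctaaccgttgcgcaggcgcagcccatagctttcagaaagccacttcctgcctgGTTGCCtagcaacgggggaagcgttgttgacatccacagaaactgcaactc
Cyp2f2: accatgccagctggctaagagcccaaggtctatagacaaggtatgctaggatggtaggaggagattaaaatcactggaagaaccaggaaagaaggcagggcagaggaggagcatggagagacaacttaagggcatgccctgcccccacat
The 4 genes with the core were picked from the ciliary lists and were all higher in CD24hi cells. Dynlrb2 was at 1090.3, 1062 and 1053 against 209, 102 and 93.4 RPKM, while Cyp2f2, picked from the club markers, was lower.

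**Figure D3:**
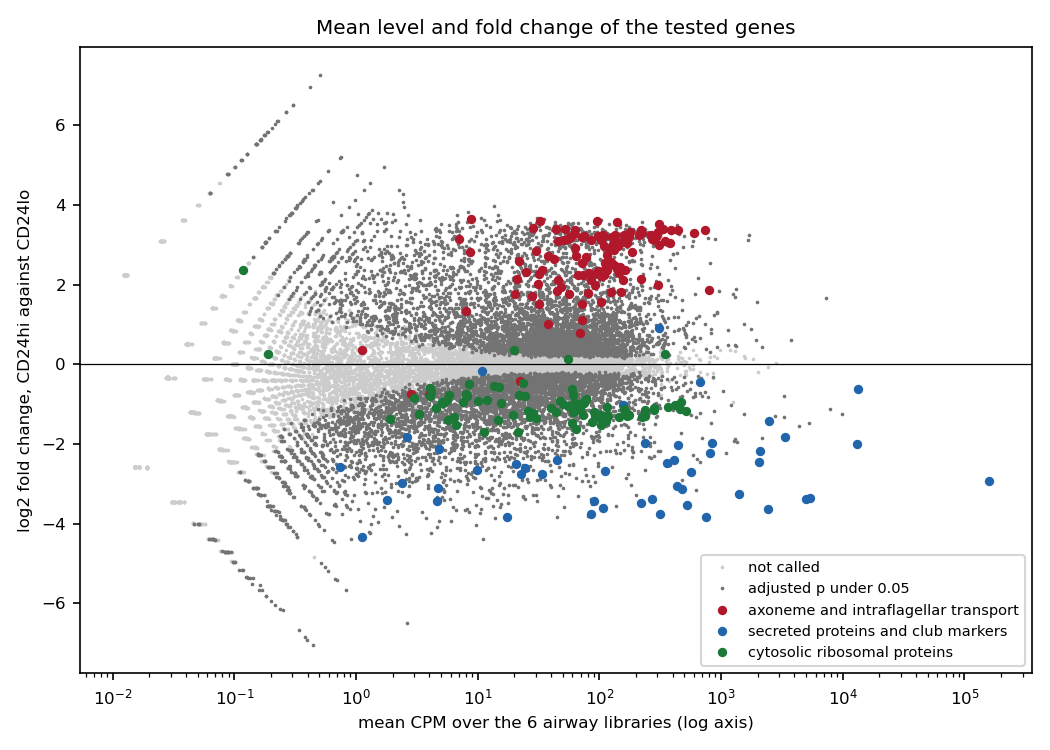
Difference between CD24hi and CD24lo cells (log2 fold change, vertical axis) against the mean level over the 6 airway libraries (CPM, log axis) for the 17989 genes tested. Pale grey points were not called and dark grey points were, with axonemal and IFT genes in red, secreted proteins and club markers in blue and ribosomal proteins in green. Most red points lie between 2 and 4, the blue points lie below 0 with few exceptions, and the green points form a cluster near -1.

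Of 19 regulators of the multiciliated fate tested, 11 were higher in CD24hi cells, 4 were lower and 4 were not called. Beside them, 27.8% of all genes were higher and 27.2% lower. Trp73, the gene of p73, an activator upstream of Foxj1, was at 43.1, 36.8 and 36.5 RPKM in CD24hi and 6.97, 3.72 and 2.46 RPKM in CD24lo cells (difference 3.13 ± 0.26, adjusted p = 2.1e-08). Rfx2, which binds the X-box, was at 53.9, 46.5 and 46.7 RPKM in CD24hi and 13.4, 7.91 and 6.39 RPKM in CD24lo cells, and its relative Rfx3 at 8.78, 17.04 and 17.04 against 4.21, 2.80 and 2.81 RPKM. The gates did not overlap for any of these 3. Myb, needed early in ciliated differentiation, was at 46.7, 63.6 and 65.4 against 15.7, 11.3 and 10.8 RPKM (difference 2.21), and the Notch antagonist Hes6 at 109, 89.8 and 94.5 against 31.4, 27.9 and 26.7 RPKM (difference 1.77). E2f4, a partner of multicilin, differed by 0.59.

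The genes that start the programme went the other way. Gmnc, which encodes GEMC1, was at 0.425, 0.635 and 0.790 RPKM in CD24hi and 5.30, 6.44 and 7.78 RPKM in CD24lo cells, a difference of -3.40 ± 0.22 (adjusted p = 1.7e-09). Mcidas, which encodes multicilin, was at 1.38, 2.11 and 1.87 against 3.75, 3.21 and 4.69 RPKM (difference -1.12 ± 0.30, adjusted p = 0.0055). Every CD24lo library was above every CD24hi library for both. Their levels in CD24lo cells were near those of tracheal non-basal cells (5.21 ± 1.01 and 3.95 ± 0.935 RPKM) and above alveolar cells (0.325 ± 0.107 and 0.159 ± 0.0112 RPKM). Ccno, Cdc20b and Foxn4, further members of the list, did not pass the test. Ccno, needed for centriole amplification, was at 20.998, 20.4 and 18.8 RPKM in CD24hi and 16.5, 18.6 and 13.1 RPKM in CD24lo cells (adjusted p = 0.16; 0.048 and 0.084 in edgeR fits of the 12 lung and the 6 airway libraries with mouse as a block). Cdc20b was at 1.06, 1.61 and 1.52 against 3.30, 2.19 and 1.82 RPKM (adjusted p = 0.064, and 0.044 by edgeR without the CD24lo library of mouse 6). Foxn4 was at 2.90, 3.37 and 2.75 against 2.14, 2.02 and 2.02 RPKM (adjusted p = 0.093; 0.084 and 0.048 in the blocked edgeR fits). Nfia, a further regulator, was lower in CD24hi cells at 2.65, 2.98 and 3.03 against 5.75, 6.64 and 6.18 RPKM, and Pax6 was at most 0.188 RPKM in any airway library. The Pax6 call (adjusted p = 0.025) was lost in both blocked edgeR fits (0.05002 and 0.053) and without the CD24hi library of mouse 4 (0.068) or 5 (0.077), the CD24lo library of mouse 6 (0.19) or both libraries of mouse 4 (0.056).

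Centriole genes were mostly higher in CD24hi cells, with 15 of 20 higher, 2 lower and 3 not called (median 0.93). The shares of all genes were 27.8% higher and 27.2% lower. Ccdc78, which works at the deuterosome where new centrioles form, was at 320.2, 255 and 229 RPKM in CD24hi and 48.8, 18.5 and 19.03 RPKM in CD24lo cells. Deup1, the gene of the deuterosome scaffold, was at 16.96, 19.6 and 21.5 against 8.31, 5.81 and 5.18 RPKM, a smaller difference (1.58 against 3.21). Plk4, the kinase that starts centriole duplication, was at 0.787, 1.75 and 1.55 against 1.92, 2.16 and 2.40 RPKM (difference -0.66, adjusted p = 0.018), and its scaffold partner Cep152 at 1.35, 1.44 and 1.34 against 2.04, 2.11 and 1.70 RPKM (difference -0.51, adjusted p = 0.0084). Both were low in all airway libraries. With library size alone neither was called (edgeR adjusted p = 0.19 and 0.25), and the call of Plk4 was also lost without the CD24hi library of mouse 4 (0.068) or the CD24lo library of mouse 6 (0.064). Cep164 and Ccp110, of the mature centriole and its cap, were higher (differences 1.87 and 1.83).

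**Figure D4:**
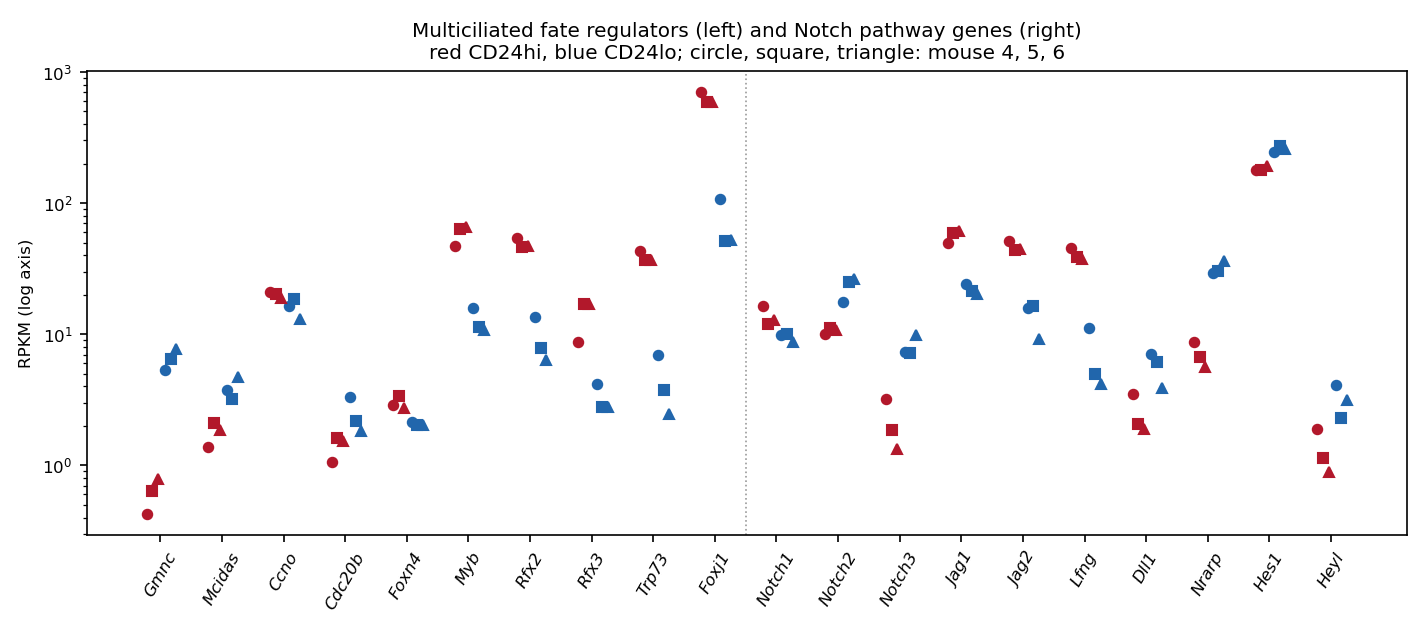
Levels (RPKM, log axis) of 10 regulators of the multiciliated fate (left) and 10 genes of the Notch pathway (right) in the 6 airway libraries. CD24hi is red, CD24lo blue, and circles, squares and triangles are mice 4, 5 and 6. Gmnc and Mcidas are higher in CD24lo while Foxj1, Trp73, Rfx2, Rfx3 and Myb are higher in CD24hi cells, and on the right Jag1, Jag2 and Lfng are higher in CD24hi and Notch2, Notch3 and Nrarp in CD24lo cells.

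All 15 club cell markers were lower in CD24hi cells (median -2.47), and so were 34 of 36 secreted airway proteins and their regulators (median -2.84). These counts stand beside 27.2% lower and 27.8% higher of all genes. The club markers did not overlap between the gates, as was the case for 8939 of all 9899 called genes. Of the club markers, 14 passed in the edgeR fit of the 12 lung libraries with mouse as a block and 13 with library size alone. The weakest, the P450 Cyp4b1 (difference -0.43, adjusted p = 0.041), kept its call in 9 of 17 alternatives and lost it without any 1 of the CD24hi or CD24lo libraries of mice 5 and 6 (edgeR adjusted p 0.14, 0.11, 0.12 and 0.085). Several genes stand on both lists. Scgb3a2, a secretoglobin of club cells, was at 1135, 822 and 1153 RPKM in CD24hi and 8602, 10185 and 13318 RPKM in CD24lo cells, and Scgb3a1, a secretoglobin of further secretory cells, at 840.2, 376 and 601 against 7095, 6598 and 8755 RPKM. Cyp2f2, the abundant P450 of club cells, was at 3452, 2572 and 2654 against 9815, 13091 and 11877 RPKM (difference -2.003 ± 0.19, adjusted p = 1.0e-07). Club markers remained in CD24hi cells at a median of 25.5, 14.0 and 16.3% of the CD24lo level of the same mouse, again highest in mouse 4.

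The gel-forming mucins were among the genes that differed most. Muc5b was at 8.44, 5.34 and 5.99 RPKM in CD24hi and 81.1, 96.8 and 102 RPKM in CD24lo cells (difference -3.82 ± 0.28, adjusted p = 4.3e-09), and Muc5ac at 0.346, 0.261 and 0.194 against 3.23, 4.68 and 3.61 RPKM (difference -3.84 ± 0.25). Muc5b was thus more than an order of magnitude above Muc5ac per length in CD24lo cells. Spdef, a transcription factor of mucous cells, was at 1.90, 0.975 and 1.55 against 8.83, 9.64 and 9.53 RPKM. Defence proteins followed, with Bpifa1 at 1194, 479.8 and 923 against 7774, 8106 and 10883 RPKM, the iron binder Ltf at 21.1, 10.4 and 16.4 against 153, 199 and 289 RPKM and the antimicrobial lectin Reg3g at 132, 65.4 and 131 against 1207, 1032 and 1519 RPKM. These 3 were still higher in tracheal non-basal cells (136758 ± 1881, 4474 ± 683 and 15926 ± 778 RPKM), whereas Retnla, a resistin-like protein, was highest in CD24lo cells (529, 861 and 616 RPKM against 67.01, 57.6 and 56.2 in CD24hi and 33.9 ± 22.01 RPKM in non-basal cells). Muc4, a membrane mucin of ciliated cells, was the only member that was higher in CD24hi cells (difference 0.91; 40.9, 37.6 and 29.7 against 19.6, 19.6 and 18.5 RPKM), and Chil3 was not called (difference -0.16, adjusted p = 0.82). The list includes surfactant genes such as Sftpb, at 517, 359 and 336 against 1707, 2033 and 1751 RPKM and 13261 ± 819 RPKM in alveolar cells. Alveolar type 2 markers were lower in CD24hi cells as well, with sums of 4846, 3154 and 3346 CPM against 16656, 14354 and 16902 CPM, and their part in the secreted list was not tested.

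Among 25 cytochrome P450 and reductase genes, 16 were lower and 5 higher in CD24hi cells (median -0.76), beside 27.2% lower and 27.8% higher of all genes. Without the CD24lo library of mouse 6, 3 were higher. Besides Cyp2f2, Por, the reductase that feeds microsomal P450 enzymes, was lower (difference -1.18; 255, 211 and 194 against 432, 566 and 496 RPKM), as was Cyp2a5 (difference -1.32; 93.6, 71.4 and 74.02 against 187, 184 and 224 RPKM), whose reads could be shared with its near copy Cyp2a4. Cyp2s1, in contrast, was at 1258, 1083 and 1082 RPKM in CD24hi and 203, 104 and 86.0 RPKM in CD24lo cells (difference 3.12 ± 0.27, adjusted p = 3.1e-08). Its difference was close to that of the axonemal genes, and mouse 4 was again highest among CD24lo libraries. Cyp2b10 was also higher in CD24hi cells (difference 1.61; 251, 243 and 283 against 85.3, 90.4 and 78.1 RPKM).

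Of 45 phase II and aldehyde or carbonyl enzymes tested, 30 were lower and 8 higher in CD24hi cells (median -1.17). The shares of all genes were 27.2% lower and 27.8% higher. Aldh3a1, which oxidises aldehydes, was at 32.1, 15.3 and 21.7 RPKM in CD24hi and 181, 185 and 202 RPKM in CD24lo cells (difference -3.04 ± 0.19, adjusted p = 1.0e-09). The aldehyde oxidase Aox3 was at 27.9, 24.2 and 25.9 against 149, 209.9 and 222 RPKM. On the other side, Aldh3b1 was at 659, 516 and 541 against 105, 49.1 and 47.8 RPKM (difference 3.08), and Gstp1 and the microsomal Mgst3, which conjugate glutathione, differed by 1.17 and 1.40. Aldh3b1 and Aldh3a1, members of the same family, thus differed in opposite directions.

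**Figure D5:**
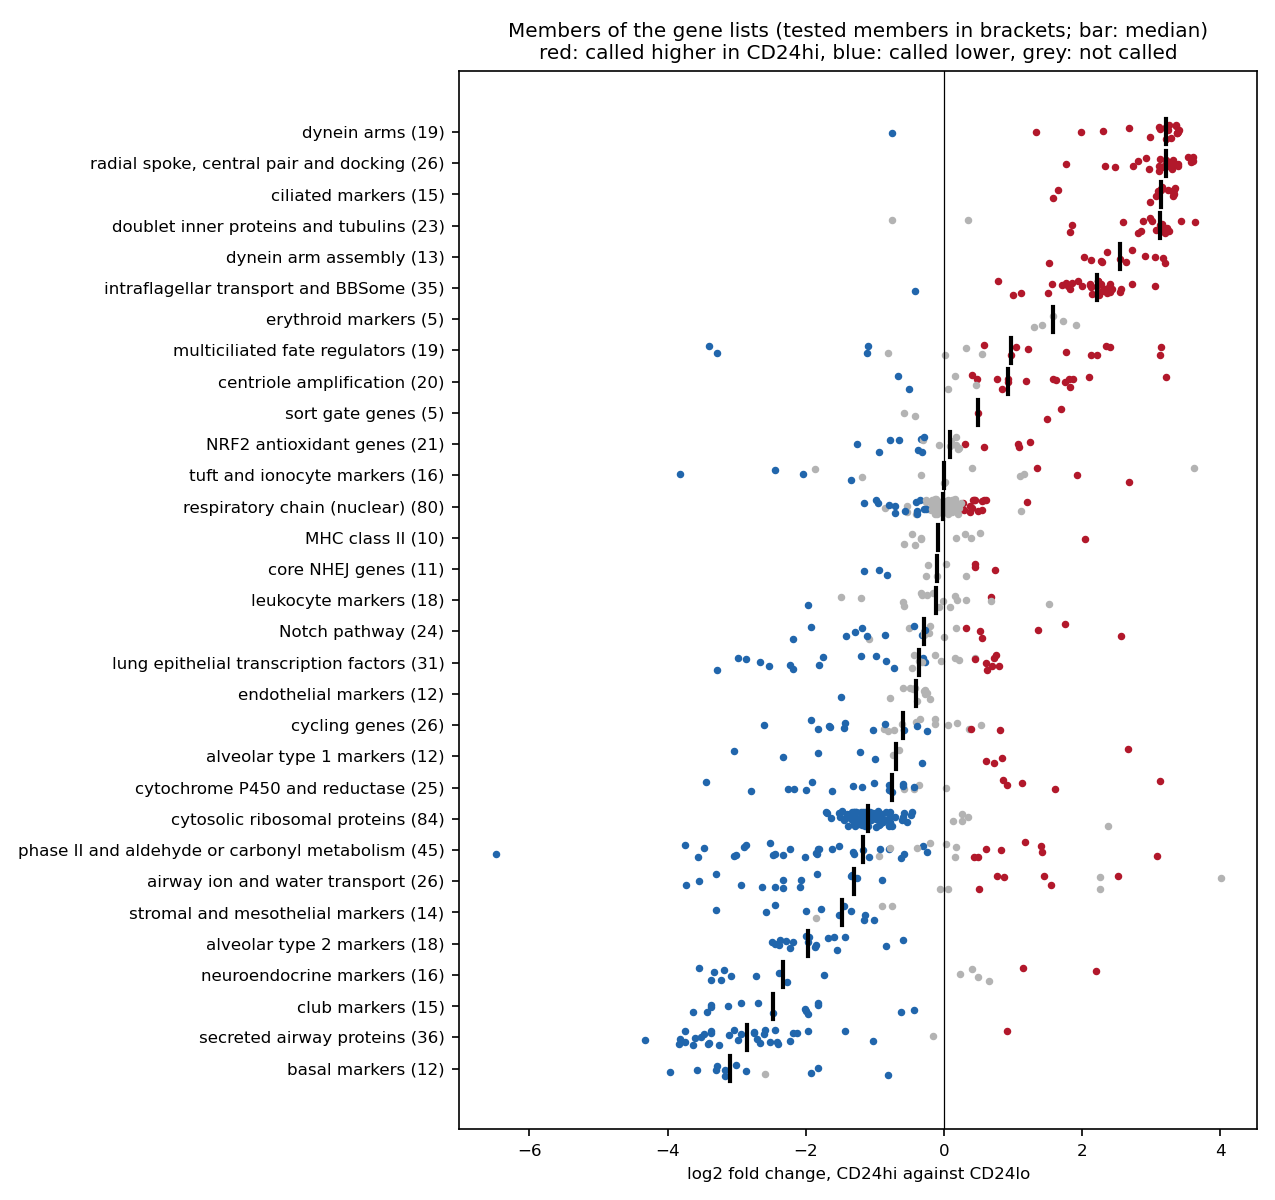
Difference between CD24hi and CD24lo cells (log2 fold change, horizontal axis) of each tested member of 31 gene lists, sorted by median, with the number tested in brackets. Red points were called higher and blue points lower in CD24hi cells, grey points were not called, and the bar marks the median. The axonemal and intraflagellar transport lists have medians above 2 and the club, secreted and basal lists medians below -2.

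Of 24 Notch genes, 6 were higher in CD24hi cells, 10 were lower and 8 were not called (median -0.29), beside 27.8% higher and 27.2% lower of all genes. The ligand Jag1 was higher, at 49.4, 58.7 and 61.5 RPKM in CD24hi and 24.1, 21.4 and 20.4 RPKM in CD24lo cells (difference 1.36), and so was Jag2 at 51.2, 43.6 and 44.8 against 15.8, 16.5 and 9.17 RPKM (difference 1.75). Lfng, a glycosyltransferase that modifies Notch receptors, was at 45.4, 38.7 and 37.6 against 11.2, 4.94 and 4.18 RPKM (difference 2.57 ± 0.30, adjusted p = 1.2e-06). The ligand Dll1 was lower at 3.52, 2.05 and 1.90 against 7.01, 6.16 and 3.86 RPKM (difference -1.19, adjusted p = 0.0021).

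Among the receptors, Notch2 was lower in CD24hi cells (difference -1.11; 10.1, 11.1 and 10.7 against 17.7, 24.9 and 26.2 RPKM) and Notch3 too (difference -1.92; 3.23, 1.85 and 1.33 against 7.35, 7.18 and 9.83 RPKM), while Notch1 was slightly higher (difference 0.53; 16.5, 11.98 and 12.8 against 9.88, 10.05 and 8.70 RPKM). Of the target genes, Nrarp, a feedback inhibitor of Notch, was at 8.71, 6.69 and 5.64 RPKM in CD24hi and 29.4, 30.1 and 35.9 RPKM in CD24lo cells (difference -2.18 ± 0.16, adjusted p = 6.7e-09). Its CD24lo level was also above that of non-basal (7.71 ± 1.08 RPKM) and alveolar cells (2.12 ± 0.0246 RPKM). An antisense gene, Gm38287, covers 79.4% of the exon bases of Nrarp, and without strand in the counting the reads of both cannot be told apart. Hes1 was at 179, 177 and 191 against 247, 270.4 and 258 RPKM and was not called (adjusted p = 0.24), although its values did not overlap, and edgeR fits of the 12 lung and the 6 airway libraries with mouse as a block gave adjusted p = 0.0011 and 0.014. Heyl and Hey2 were lower in CD24hi cells (differences -1.28 and -1.42). Notch3, Heyl and Hey2 were highest in EpCAM-negative cells (19.6 ± 3.63, 41.8 ± 2.39 and 7.33 ± 0.220 RPKM), and stromal markers were lower in CD24hi cells as well, with summed levels of 524, 315 and 197 CPM against 1303, 879 and 1109 CPM in CD24lo cells. The part of such cells in these differences was not tested.

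Of 26 genes of ion and water transport, 15 were lower in CD24hi cells, 6 were higher and 5 were not called (median -1.30), beside the same shares of all genes. The epithelial sodium channel was divided by subunit. Its beta subunit Scnn1b was at 34.6, 20.9 and 25.4 RPKM in CD24hi and 126, 199 and 179.9 RPKM in CD24lo cells (difference -2.64 ± 0.18) and its gamma subunit Scnn1g at 9.06, 5.72 and 6.50 against 40.2, 65.3 and 58.2 RPKM (difference -2.94 ± 0.20). By contrast, the alpha subunit Scnn1a was higher in CD24hi cells at 191, 177 and 175 against 101, 122 and 96.0 RPKM (difference 0.77 ± 0.10, adjusted p = 3.4e-06). The chloride channel gene Cftr was lower in CD24hi cells at 0.455, 0.540 and 0.586 against 2.50, 3.40 and 2.72 RPKM, and so was the cotransporter Slc12a2 at 9.47, 13.9 and 15.8 against 48.7, 65.8 and 82.9 RPKM. The water channel Aqp5 and the potassium channel subunit Kcne3 were lower too (differences -2.33 and -3.73). Kcnk5, another potassium channel, and the scaffold Slc9a3r1 were higher (differences 2.52 and 1.45).

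Of 31 transcription factors of the lung epithelium, 7 were higher, 15 lower and 9 not called (median -0.36), beside 27.8% higher and 27.2% lower of all genes. Among the lower ones were Elf5 at -2.86, Foxa3 at -2.99, Spdef at -2.66 and Ehf at -2.18. Foxa2 was higher in CD24hi cells (difference 0.62; 45.5, 43.3 and 41.0 against 28.7, 25.8 and 29.9 RPKM). Nkx2-1, which specifies the lung, differed by -0.27 (adjusted p = 0.031), a size near that of the scaling shift, and the sign turned to 0.013 with library size alone. With mouse as a block its adjusted p was 0.084 in the edgeR fit of the 12 lung libraries and 0.13 in that of the 6 airway libraries, and without any 1 of 4 airway libraries (CD24hi of mouse 5 or 6, CD24lo of mouse 4 or 5) it was 0.11, 0.082, 0.060 or 0.10. Sox2, an airway factor, was at 30.4, 34.4 and 33.3 against 35.9, 43.8 and 45.9 RPKM and was not called (adjusted p = 0.068; 0.12 and 0.0495 in the same blocked edgeR fits, 0.017 without mouse 4 and 0.023 without its CD24lo library alone).

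Most markers of other epithelial cells were lower in CD24hi cells. Their counts stand beside 27.8% higher and 27.2% lower of all genes. Of 12 basal markers, 11 were lower (median -3.09), with Krt5 at 3.41, 3.62 and 3.74 RPKM in CD24hi, 32.0, 59.99 and 36.5 RPKM in CD24lo and 1538 ± 52.8 RPKM in tracheal basal cells. Trp63, the gene of the basal cell factor p63, was at 0.474, 0.979 and 1.35 RPKM in CD24hi, 6.78, 11.9 and 8.57 RPKM in CD24lo and 97.6 ± 9.40 RPKM in tracheal basal cells. The basal list summed to 416, 401 and 358 CPM in CD24hi and 858, 1362 and 849 CPM in CD24lo cells. Most of each sum was the list member Icam1, with 4803, 4652 and 3785 reads in CD24hi and 5304, 8144 and 4154 in CD24lo cells. Krt5 had 99, 107 and 104 reads against 760, 1338 and 695. All 18 alveolar type 2 markers were lower (median -1.96; 17 in the edgeR fit of the 6 airway libraries with mouse as a block, and 17 without mouse 4 or without its CD24lo library alone, Hkdc1 being lost each time), and their sum reached 260756 to 295448 CPM in alveolar cells. Sftpc, a surfactant gene used as a marker of alveolar type 2 cells, was at 1830.5, 823 and 855 RPKM in CD24hi and 5709, 2697 and 4243 RPKM in CD24lo cells. Neuroendocrine markers were mostly lower (10 of 16, with 2 higher), for example Calca at 0.456, 0.846 and 0.475 against 2.04, 3.89 and 2.78 RPKM, but Uchl1, which is also neuronal, was higher (difference 2.20; 25.3, 20.2 and 17.3 against 7.30, 4.45 and 1.61 RPKM). The neuroendocrine list summed to 102, 97.3 and 86.5 CPM in CD24hi and 69.7, 59.6 and 59.6 CPM in CD24lo cells, so that its sum was higher in CD24hi cells while its median was lower (-2.33). Of 12 alveolar type 1 markers, 4 were higher and 6 lower (median -0.70), for example Pdpn at -3.03 and Igfbp2 at 2.66. The protein of Pdpn, T1α, also served the study as a marker of tracheal basal cells, so Pdpn does not stand for type 1 cells alone. Of 16 tuft cell and ionocyte markers, 3 were higher and 4 lower, beside 27.8% and 27.2% of all genes. Their median was 0.00, and -0.16 with genes that had no reads in a gate at their bound. Their sum was 30.1, 24.4 and 23.8 CPM in CD24hi against 108, 127 and 141 CPM in CD24lo cells. Atp6v1b1, a proton pump subunit that ionocytes and secretory cells use, was among the lower ones (difference -3.82). It had the most reads of the list in each library, 109, 54 and 70 in CD24hi and 763, 822 and 874 in CD24lo cells. Among the higher ones were Avil (difference 1.34) and Ascl3 (difference 1.93, called in 11 of 17 alternatives). The defining tuft factor Pou2f3 was at most 0.0898 RPKM in any airway library.

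Markers of non-epithelial cells moved with the mouse as well as with the gate. Their counts, too, stand beside 27.8% higher and 27.2% lower of all genes. The 12 endothelial markers summed to 1259, 562 and 344 CPM in CD24hi and 1720.1, 746 and 683 CPM in CD24lo cells, with mouse 4 highest in both. Of the 12, only Kdr, a VEGF receptor, passed the test (difference -1.49; 21.5, 12.99 and 11.3 against 42.5, 43.7 and 42.2 RPKM), but without the CD24hi library of mouse 4 there were 8 lower calls, and 4 in the fit of the 6 airway libraries with mouse as a block. Stromal and mesothelial markers were lower in CD24hi cells for 11 of 14 (median -1.48), such as Col3a1 at 15.5, 9.36 and 6.52 against 36.1, 22.7 and 30.9 RPKM and 1514 ± 55.0 RPKM in EpCAM-negative cells. Leukocyte markers gave 1 higher and 1 lower call of 18 (median -0.11), the higher being Csf1r, a macrophage receptor (difference 0.68, edgeR adjusted p = 0.031, 0.070 without mouse 4 and 0.054 to 0.13 without 1 of the CD24hi libraries of mice 4 and 5 or the CD24lo libraries of mice 5 and 6), and the lower Lyz2, which alveolar cells also express. The list summed to 464, 334 and 370.3 CPM against 1644, 935 and 1621 CPM. Most of these sums was Lyz2, with 5460, 3920 and 4222 reads in CD24hi and 17312, 9183 and 13610 in CD24lo cells. No other member exceeded 243 reads in an airway library (Csf1r), so the sums do not measure leukocytes apart from Lyz2. None of 5 erythroid markers passed the edgeR test (median 1.58), with 1 at an unadjusted p under 0.05, 1 called by DESeq2, none by limma voom and 3 higher in each of the blocked edgeR fits. The list had sums of 71.5, 23.0 and 18.4 CPM in CD24hi and 22.005, 4.03 and 6.33 CPM in CD24lo cells. The part of these cells in the differences above was not tested.

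Ribosomal protein genes were lower in CD24hi cells almost throughout. Of 84 tested, 79 were lower in CD24hi cells and 5 were not called, with a median of -1.11. Among the 84, 37 belonged to the genes that were lower in CD24hi cells than in each other population. Over all genes, 27.2% were lower in CD24hi than in CD24lo cells, and 5.41% were lower than in each other population. Rps18 was at 116, 92.7 and 99.7 RPKM in CD24hi and 254, 302 and 327 RPKM in CD24lo cells (difference -1.52 ± 0.10, adjusted p = 1.6e-09), and Rps19 at 66.2, 41.7 and 42.6 against 137, 155 and 176 RPKM. The list summed to 5874, 4339 and 4229 CPM in CD24hi, 9098, 10352 and 10639.9 CPM in CD24lo and 10029 to 10769 CPM in alveolar cells. The CD24lo libraries were near the alveolar ones, and the CD24hi libraries below both. With library size alone, 69 were lower and 3 higher (median -0.82). Many of these genes have near-identical copies elsewhere in the genome, so single values are uncertain.

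Cycling genes were low in both gates, with sums of 159.9, 175 and 163 CPM in CD24hi and 202, 218 and 222 CPM in CD24lo cells against 704 to 834 CPM in tracheal basal cells. Of 26 tested, 12 were lower in CD24hi cells and 2 higher (median -0.59), among them the proliferation marker Mki67 at 0.210, 0.551 and 0.226 against 0.731, 1.64 and 1.15 RPKM. Over all genes, 27.2% were lower and 27.8% higher. Genes of non-homologous end joining, the repair of double-strand breaks by direct ligation, gave 3 higher and 3 lower calls of 11 (median -0.09), near the shares of all genes (27.8% and 27.2%), and 2 higher in both edgeR fits with mouse as a block. Xrcc6, which encodes Ku70, was at 6.11, 4.70 and 5.29 RPKM in CD24hi and 9.98, 10.4 and 10.6 RPKM in CD24lo cells (difference -0.95 ± 0.12, adjusted p = 3.1e-06), and Dclre1c (Artemis) was lower too (difference -1.15), while Nhej1 was higher (difference 0.73). Prkdc, the catalytic subunit of DNA-PK, was at 1.41, 1.77 and 1.85 against 1.88, 1.84 and 2.29 RPKM and was not called (adjusted p = 0.081, and 0.044 by edgeR without the CD24hi library of mouse 6).

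Beyond the lists, the largest differences among genes of at least 10 CPM on average and without overlap are a description of the extremes. Higher in CD24hi cells were Unc79 (difference 3.97), a subunit of a sodium leak channel, the synaptotagmin Syt10 (difference 3.74), the potassium channel Kcnk12 (difference 3.68), Dkkl1 (difference 3.66) and the axonemal Cfap77 (difference 3.64), followed by the glutamate receptor Grm4 (difference 3.63) and Ldlrad1 (difference 3.63). Kcnk12 was at 35.2, 27.9 and 25.4 RPKM in CD24hi and 4.39, 1.21 and 1.12 RPKM in CD24lo cells, and Grm4 at 7.46, 6.72 and 6.84 against 1.27, 0.198 and 0.155 RPKM. In both, the CD24lo library of mouse 4 exceeded the other CD24lo libraries several times over. Among those lower in CD24hi cells were Capn13 (difference -4.38), a calpain, the PACAP receptor Adcyap1r1 (difference -3.84), Muc5ac, Atp6v1b1, Muc5b, the retinol-oxidising Adh7 (difference -3.81), Clca1 (difference -3.75) and the trefoil peptide Tff2 (difference -3.61). Capn13 was at 0.549, 0.227 and 0.391 against 6.23, 8.001 and 10.2 RPKM and Adh7 at 5.70, 3.81 and 6.09 against 60.8, 69.7 and 88.1 RPKM, and for both the tracheal non-basal cells were higher still (19.4 ± 1.58 and 429.8 ± 53.2 RPKM).

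Signature genes, defined as higher (or lower) than in all 5 other populations alike by more than 1.2-fold (edgeR glmTreat, adjusted p under 0.05), were more numerous for the CD24hi than for the CD24lo cells. The CD24hi signature held 2255 genes that were higher (12.5% of the genes tested) and 973 that were lower (5.41%), and the CD24lo signature 171 (0.951%) and 46 (0.256%). The CD24lo signature, 217 genes in both directions, held 419 with no fold threshold. The CD24hi side took in all 15 ciliated markers, 26 of 26 radial spoke and central pair genes, 17 of 19 dynein arm genes and 33 of 35 IFT genes. For 1053 of the 2255 genes higher in CD24hi cells, the next closest population was CD24lo. For the 171 genes higher in CD24lo cells, it was CD24hi for 62 and non-basal cells for 54. The CD24lo signature held 7 of 15 club markers, 5 of 36 secreted proteins and 6 of 45 phase II enzymes. Farthest from the next closest population were Retnla (3.47), Scnn1g (2.94), Scgb1a1 (2.94), Scnn1b (2.64) and the calcium pump Atp2b2 (2.27), each next to CD24hi cells, and Atp2b2 was at 8.12, 13.7 and 9.98 RPKM in CD24lo and 2.21, 2.32 and 2.06 RPKM in CD24hi cells but at 0.162 ± 0.0134 RPKM in non-basal cells. On the lower side of the CD24hi signature were Ptges (-3.04), a prostaglandin E synthase, and the aminopeptidase Anpep (-2.42), and on that of the CD24lo signature Slit2 (-0.99), a guidance ligand, and Hsdl2 (-0.84). The 46 lower genes of the CD24lo signature became 73 without the CD24lo library of mouse 4 and 91 without both its libraries.

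Set against the alveolar cells of the same mice, CD24hi cells had 5479 genes higher (30.5%) and 5652 lower (31.4%) and CD24lo cells 4347 higher (24.2%) and 4360 lower (24.2%). These comparisons share the alveolar libraries, so their values are given side by side only. All 15 ciliated markers were higher than in alveolar cells in both gates, and the club markers were higher for 13 of 15 in CD24hi (1 lower) and for 15 of 15 in CD24lo cells. Of the secreted proteins, 16 were higher and 14 lower in CD24hi cells, and 25 were higher and 9 lower in CD24lo cells. All 18 alveolar type 2 markers were lower in both gates. Ribosomal protein genes were lower than in alveolar cells for 78 of 84 in CD24hi cells (1 higher) and for 7 of 84 in CD24lo cells (4 higher).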

How the data were processed

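RNA of sorted cells was extracted with an RNeasy Micro kit and sequenced as 100-base single-end reads. The authors aligned the reads to mm10 with Rsubread and assigned them to Entrez genes with featureCounts and its in-built RefSeq annotation, and the deposited values are whole-number counts per gene with the gene length, 1 file per library, for 27179 genes. A strand setting was not given in the sources used here, so antisense genes are uncertain (20.5 to 24.5% of the exon bases of Dll1, Dnaaf1 and Sass6, and most of those of Nrarp, are covered from the other strand in GENCODE vM21). Symbols came from a RefSeq table (25275 of 27179 IDs matched) and 18 more from GENCODE.

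A gene was tested where 3 or more libraries exceeded 0.2 CPM before scaling, which left 17989. Counts were scaled by TMM and 1 quasi-likelihood model of all 18 libraries was fitted with edgeR 4.0.16 (R 4.3.3), the 6 populations being the groups, with Benjamini-Hochberg adjustment over all genes. Signatures were taken with edgeR's glmTreat at a fold change of 1.2 for both populations, whereas the study used limma's treat on voom values and let the threshold depend on the population. RPKM, CPM sums and within-mouse percentages were computed here from the counts, the TMM-scaled library sizes and, for RPKM, the deposited lengths. Exact permutation tests were used for single values. The scripts were tested on simulated data. The depth of 9811503 to 12070383 counted reads per airway library limits what could be called among low genes, and p-values rest on 3 mice per population. CD24hi and CD24lo libraries with the same number come from the same mouse by their labels, so the numbers pair the samples. The correlation of paired deviations from the gate means was 0.278, 0.0439 and 0.175 for mice 4, 5 and 6. Between libraries of unlike mice it ran from -0.275 to 0.135, a range that holds the value of mouse 5. The study's methods state no block for the mouse libraries, and the main model had none.

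Genes were named by rule: the 15 largest rises and 15 largest falls with at least 10 CPM and no overlap between gates, members of the 31 lists, and the 5 genes of each signature farthest from the next population in each direction; some of these are only counted or are not reported here. The populations, lists and members were chosen with earlier results of these data known. Some list members had no match (5 dynein arm, 5 assembly and 6 doublet genes among them) or were not tested. Alternatives were RLE scaling, library size alone, other filters, each library left out, mouse as a block, only the airway libraries, limma voom, DESeq2 and other fold thresholds. Leaving out both airway libraries of mouse 4 was chosen after seeing the data.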

Additional observations from a re-analysis of the deposited data

How the results depend on the processing

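The number of genes called between CD24hi and CD24lo cells ran from 9156 to 10431 when single libraries were left out and from 7375 (only the 6 airway libraries, no block) to 10235 (library size alone) over the other fits, against 9899. With mouse as a block it was 9315 in the 12 lung libraries and 8397 in the 6 airway libraries, and of 717 list members and genes named by rule, 15 and 34 lost their call in these fits (14 in both, among them Cyp2a4, Nkx2-1 and Pax6) and 9 and 19 gained one (5 in both). Besides Cyp2a4 and the calls given in the report, this pairing changed no call of a gene whose values are printed. The CD24lo signature grew from 217 genes to 327 at a fold threshold of 1.1 and to 419 with none. With library size alone the lower CD24hi signature fell from 973 to 529 genes and the lower CD24lo signature rose from 46 to 105. The medians of some small or balanced lists changed sign. That of tuft and ionocyte markers lay between -0.15 and 0.33 with a library left out, at -0.030 and -0.022 in the blocked fits and at -0.30 with limma voom. Endothelial markers lay between -1.09 and 0.35 with a library left out, the latter without the CD24lo library of mouse 4. Leukocyte markers were at 0.17 with library size alone and at 0.094 with voom. MHC class II was at 0.19 with library size alone, between -0.40 and 0.35 with a library left out and at 0.026 without mouse 4. NRF2 genes were between -0.061 and 0.13 with a library left out and at -0.13 without mouse 4. End-joining genes were at 0.20 and respiratory chain genes at 0.28 with library size alone, the latter also between -0.11 and 0.060 with a library left out and at 0.012 with voom. Among named genes, Chil3 was at 0.14 with library size alone, between -0.58 and 0.18 with a library left out and at 0.048 without mouse 4, Prkdc was at 0.037 and Nkx2-1 at 0.013 with library size alone, Tekt5 ran from -0.093 to 1.56 and Pecam1 from -1.09 to 0.31 with a library left out. The cause of these changes was not tested. Depth limits the low genes, such as Pax6 and Pou2f3, where a few reads set the level.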

Other observations

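Some gene groups belong to neither the ciliary nor the secretory programme. Of 21 genes of the antioxidant response under NRF2, 5 were higher in CD24hi cells, 8 lower and 8 not called (median 0.08, and -0.13 without mouse 4), beside 27.8% higher and 27.2% lower of all genes. Scaled by library size alone, 10 passed as higher and 4 as lower, and 4 were lower in the edgeR fit of the 6 airway libraries with mouse as a block. Txnrd1, thioredoxin reductase, and Gclm, the modifier subunit of glutathione synthesis, were higher (differences 1.07 and 1.24; Txnrd1 at 179, 190.2 and 177 RPKM in CD24hi and 85.6, 102 and 72.4 RPKM in CD24lo cells), whereas Me1, a source of NADPH, was lower (difference -1.26). Nqo1, a common readout of the pathway, was at 49.3, 33.7 and 45.2 against 38.6, 33.7 and 41.3 RPKM and was not called (edgeR adjusted p = 0.48).

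Nuclear genes of the respiratory chain gave 14 higher and 13 lower calls of 80 (median -0.01), which is below the share of all genes called in each direction. Atp5b of the ATP synthase was higher in CD24hi cells (difference 0.58; 405, 367 and 393 against 251, 264 and 266 RPKM) and Ndufa5 of complex I lower (difference -1.16; 26.7, 19.3 and 17.8 against 41.8, 46.5 and 54.7 RPKM). Without both libraries of mouse 4 the lower calls rose to 25 (23 without its CD24hi library alone) and the higher calls fell to 10. Scaled by library size alone, 39 passed as higher and 4 as lower, and with mouse as a block the 6 airway libraries gave 10 and 7. Of 10 MHC class II genes, 1 was higher and 9 were not called (median -0.08), and 2 were lower in the edgeR fit of the 6 airway libraries with mouse as a block.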
